A study of Mus musculus with 2 samples.

Results

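Complement is a set of plasma and surface proteins that tag targets for uptake, and 9 of its genes are described here in mouse lung macrophages. They are C1qa, C1qb and C1qc, which encode the 3 chains of C1q, the components and factors C3, C4b, Cfb and Cfp, and the receptors C3ar1 and C5ar1. The genes were taken by symbol as matrix rows, 9 of 22597 genes in all, and were chosen with earlier results of these data known. Each was measured as counts of unique molecular identifiers (UMIs) in 1 droplet-based 3′ single-cell RNA library, in which a second library of hashtag antibodies marked the genotype of each cell.

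Host mice were irradiated CD45.1+CD45.2+ animals of the IM-DTR strain, reconstituted with CD45.1-CD45.2+ marrow. Donor marrow was Tgfbr2 fl/fl in the group called here the control pool (hashtag B0301) and LyzM-Cre Tgfbr2 fl/fl in the group called the Tgfbr2-KO pool (hashtag B0303). Tgfbr2 encodes a receptor subunit for TGF-beta, and the LyzM promoter drives Cre in monocytes, macrophages and neutrophils, so donor myeloid cells other than lung macrophages carried the deletion too. Hosts of both groups received 50 ng of diphtheria toxin 10 days before sacrifice, so the pools share the irradiation, the host strain and the toxin. Donor cells were sorted as Ly6G-, SiglecF-, CD11b+, low in side scatter and CD64+, from lungs of 5 pooled mice; whether this number holds for each genotype is not clear from the labels. Single animals cannot be told apart within a hashtag, which leaves 1 unreplicated pool for each genotype. The genotypes were therefore compared without tests, and every value describes these pools only.

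After filtering, the control pool held 1896 cells and 16298452 UMIs, and the Tgfbr2-KO pool 2674 cells and 30729204 UMIs. Median depth per cell was 7785 UMIs in the control pool and 10277.5 UMIs in the Tgfbr2-KO pool. A barcode cannot carry both hashtag assignments, so none could be shared between the pools. Levels are given as UPM, the gene's UMIs divided by all gene UMIs of the pool or cell state and multiplied by 1000000. Intervals are 95% exact Poisson limits for levels, exact binomial limits for ratios and Clopper-Pearson limits for shares; all cover counting error only. All 6 macrophage identity genes were at 10 UPM or more in both pools, with summed levels of 2364 UPM (control) and 2040 UPM (Tgfbr2-KO). They include Fcgr1, the gene of the sorted marker CD64, so this list is not an independent check of the label. Other marker lists moved between the pools: 10 classical monocyte genes summed to 282 UPM in the control and 1185 UPM in the Tgfbr2-KO pool, 9 patrolling monocyte genes to 83.0 and 158 UPM, and 11 interferon-response genes to 518 and 4394 UPM. T or NK cell genes summed to 1.53 and 6.18 UPM, and B or plasma cell genes to 13.1 and 15.5 UPM. Alveolar macrophage genes were at 53.5 and 30.6 UPM and neutrophil genes at 45.3 and 61.0 UPM, so these lists were low in both. Structural lung cell genes were at 223 and 294 UPM, above the patrolling monocyte list in both pools. The part of all these lists in the differences below was not tested, except where a value within a cell state is given. Tgfbr2 itself had 215 UPM among control and 195 UPM among Tgfbr2-KO cells; 3′ counts do not read the deleted segment and so do not check the genotype.

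Complement can be started by C1q, which binds immune complexes and dying cells and triggers cleavage of C4 and then C3. The alternative pathway needs no antibody: factor B (Cfb) joins cleaved C3 to form a convertase that cleaves more C3, and properdin (Cfp) stabilises that enzyme. Cleavage releases the peptides C3a and C5a, whose receptors on myeloid cells are C3ar1 and C5ar1. Most plasma complement is made by the liver, while tissue macrophages are a main source of C1q and also make C3, factor B and properdin locally.

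The 3 C1q genes lie side by side on chromosome 4 (GRCm38.p6; C1qa 136895916-136898844, C1qb 136880126-136886200, C1qc 136889801-136892936). C3 (57203967-57228136), C4b (34728139-34743902) and Cfb (34856374-34862514) are on chromosome 17. Cfp is on X (20925454-20931555), C3ar1 on 6 (122847140-122856157) and C5ar1 on 7 (16246743-16259540). C4b has a near-identical copy, C4a, not analysed here, so its counts could include reads of that copy and its values are uncertain.

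The 250 bases before the start used in the RefSeq promoter table are shown for C1qb and C1qc, whose levels were high and low in the same cell states, and for C3, whose levels were not. They are RefSeq sequences of GRCm38.p6 at chr4:136886201-136886450, chr4:136892915-136893164 and chr17:57228137-57228386, each from the minus strand and written 5′ to 3′. Capitals mark the letters GAGGAA (an ETS-type motif, as bound by the macrophage factor PU.1) and TTNNGNAA (a C/EBP-type motif), on either strand.
C1qb: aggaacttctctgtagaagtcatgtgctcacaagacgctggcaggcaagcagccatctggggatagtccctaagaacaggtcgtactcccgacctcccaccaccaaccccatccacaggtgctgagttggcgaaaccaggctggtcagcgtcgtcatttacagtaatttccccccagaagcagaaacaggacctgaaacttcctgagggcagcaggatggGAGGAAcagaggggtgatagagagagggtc
C1qc: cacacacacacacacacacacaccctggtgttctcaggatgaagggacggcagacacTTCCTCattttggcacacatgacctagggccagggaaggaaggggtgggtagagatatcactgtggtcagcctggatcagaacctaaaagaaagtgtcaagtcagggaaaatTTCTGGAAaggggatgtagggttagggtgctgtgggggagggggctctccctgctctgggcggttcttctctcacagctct
C3: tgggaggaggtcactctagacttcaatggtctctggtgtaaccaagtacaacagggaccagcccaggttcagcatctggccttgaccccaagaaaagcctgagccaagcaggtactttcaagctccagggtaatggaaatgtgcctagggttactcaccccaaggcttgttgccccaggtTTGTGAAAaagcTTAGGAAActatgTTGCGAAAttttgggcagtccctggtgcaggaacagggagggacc
C1qb held GAGGAA starting at -30 from the gene start and C1qc at -193, the latter on the opposite strand; positions give the first letter of a match, with the table's start as 0. For C1qc and C5ar1 that start lies inside the gene range given above, so part of the bases before it overlap the range. C3 held TTNNGNAA 3 times, at -70, -58 and -45, and C1qc once, at -81. Among the windows not shown, Cfp held GAGGAA at 6 and 22, and C5ar1 held TTNNGNAA at -157. Of 32851 RefSeq mouse windows of 300 bases (250 before and 50 after the start), 28.3% held GAGGAA and 40.7% held TTNNGNAA, so neither match is rare. TTCNNNGAA (the letters of an interferon-gamma-type STAT site; 8.30% of windows) and a pair of GAAA spaced by NN (an interferon-stimulated response type; 3.44%) had no match in the windows of C1qb, C1qc, C3, Cfp, C3ar1 or C5ar1. CAGAC (SMAD-type; 49.6%) matched in C1qc, at -200 and 16, and in Cfp (-210) and C3ar1 (-177). TGCTGA (MAF-type; 19.5%) matched in C1qb (-131), C3 (-182), C3ar1 (-144) and C5ar1 (-17). C1qa, C4b and Cfb were not in the promoter table. A match is a description of letters and says nothing of binding.

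Across all cells of a pool, the genes of the C3 convertases were higher in the Tgfbr2-KO pool, the C1q chains were close to level, and the C3a receptor was lower. Counting a gene as different at a ratio of 1.5 or more, 4 of the 9 genes were higher in the Tgfbr2-KO pool and 1 was lower. The background was 11.9% of 10237 genes with at least 100 UMIs higher and 7.53% lower at the same ratio. All 9 complement genes reached 100 UMIs, Cfb only through the Tgfbr2-KO pool.

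Cfb, the gene of factor B, differed by the widest ratio of the 9. Control cells had 36 UMIs of it (2.21 UPM) and Tgfbr2-KO cells 2242 (73.0 UPM), a ratio of 33.0 (23.8 to 47.3). Few control cells carried it, while a large minority of Tgfbr2-KO cells did. At least 1 Cfb UMI was seen in 1.48% of control cells and 26.0% of Tgfbr2-KO cells.

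C3, the substrate that every complement route cleaves, was at 79.6 UPM in control and 336 UPM in Tgfbr2-KO cells, 4.22-fold higher (3.98 to 4.47). Positive cells made up 24.4% of the control and 50.0% of the Tgfbr2-KO pool. C4b, a component of the classical and lectin convertase, was at 12.4 and 66.1 UPM, a 5.33-fold difference (4.61 to 6.19), with 4.27% and 20.0% positive cells. Cfp, the gene of properdin, was at 151 and 355 UPM, 2.34-fold higher (2.24 to 2.45), with 41.5% and 67.1% positive cells. All 4 convertase genes were therefore both higher in level and found in a larger share of cells. Because depth differed between the pools, cells were also thinned to 3000 UMIs each, leaving out 80 shallower control and 83 shallower Tgfbr2-KO cells. Positive shares were then 13.2% and 33.2% for C3, 1.82% and 11.1% for C4b, 13 of 1816 and 285 of 2591 cells for Cfb, and 25.2% and 47.4% for Cfp.

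The C1q chains stayed within the 1.5-fold band. C1qa was at 4629 UPM in control and 3978 UPM in Tgfbr2-KO cells, 1.16-fold lower (1.15 to 1.17). C1qb was at 4328 and 4165 UPM, and C1qc at 2563 and 2262 UPM. Summed, the chains were at 11520 and 10405 UPM, 1.11-fold lower in the Tgfbr2-KO pool. The chains' make-up also differed little: C1qa, C1qb and C1qc gave 40.2%, 37.6% and 22.3% of C1q UMIs in the control pool and 38.2%, 40.0% and 21.7% in the Tgfbr2-KO pool. The share of cells with no C1q was another matter. After thinning to 3000 UMIs, 96.5% of control cells and 88.1% of Tgfbr2-KO cells had any C1q UMI.

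Both anaphylatoxin receptors had lower levels in the Tgfbr2-KO pool. C3ar1 was at 397 UPM in control and 234 UPM in Tgfbr2-KO cells, 1.70-fold lower (1.64 to 1.76). C5ar1 was at 399 and 286 UPM, 1.39-fold lower (1.35 to 1.44), inside the 1.5-fold band. C3ar1 was seen in 83.7% of control and 68.1% of Tgfbr2-KO cells, and C5ar1 in 80.1% and 71.8%. Cells with neither receptor made up 6.33% of the control and 16.5% of the Tgfbr2-KO pool, and cells with both 70.1% and 56.4%. With thinning the positive shares were 62.9% and 44.5% for C3ar1, and 60.6% and 48.5% for C5ar1. The direction was the same on every one of these measures.

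Cell states were rebuilt by clustering without the complement genes and named from marker lists, so each is called by its likeness only. The CD206+ macrophage-like state (clusters 4 and 5; Mrc1, Lyve1, Folr2, Cd163) held 184 control and 629 Tgfbr2-KO cells. The CD206- macrophage-like state (clusters 1, 2 and 3; Cd207, Col14a1, Cx3cr1) held 1164 and 662, and the Fn1-rich macrophage-like state (clusters 6 and 12; Gpnmb, Pdpn, Spp1) 260 and 102. Fn1 itself counted as a raised marker in cluster 6 but not in cluster 12. Mrc1, the gene of CD206, was at 2513 UPM (control) and 2202 UPM (Tgfbr2-KO) in the CD206+ state. In the CD206- state Mrc1 was at 677 and 538 UPM, so that state was lower in Mrc1, not without it. An interferon-activated-like state (cluster 0; Cxcl9, Ly6i, Gbp2, and led also by Saa3, Ccr7 and Nos2) held 15 control and 682 Tgfbr2-KO cells, that is 0.791% and 25.5% of the pools. Besides 11 of 11 interferon markers, this cluster carried 4 classical monocyte and 5 dendritic cell markers. Monocyte-like cells numbered 37 and 140, dendritic-like cells 106 and 62, proliferating-like cells 36 and 105, and structural-like cells 6 and 12. Cluster 7, with 10 control and 237 Tgfbr2-KO cells, was led by Tgfb3, Ccl8, Dnase1l3 and Cxcl13; it carried 7 interferon and 5 CD206- markers and was left unnamed. Cluster 11, with 78 and 43 cells and a median of 2862 UMIs, was left unnamed too. Since a state is almost or wholly of 1 pool for cluster 0, cluster 7 and cluster 12, state and genotype cannot be told apart there. Only the CD206+, CD206- and Fn1-rich states had at least 100 cells in each pool and were compared between genotypes.

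**Figure D1:**
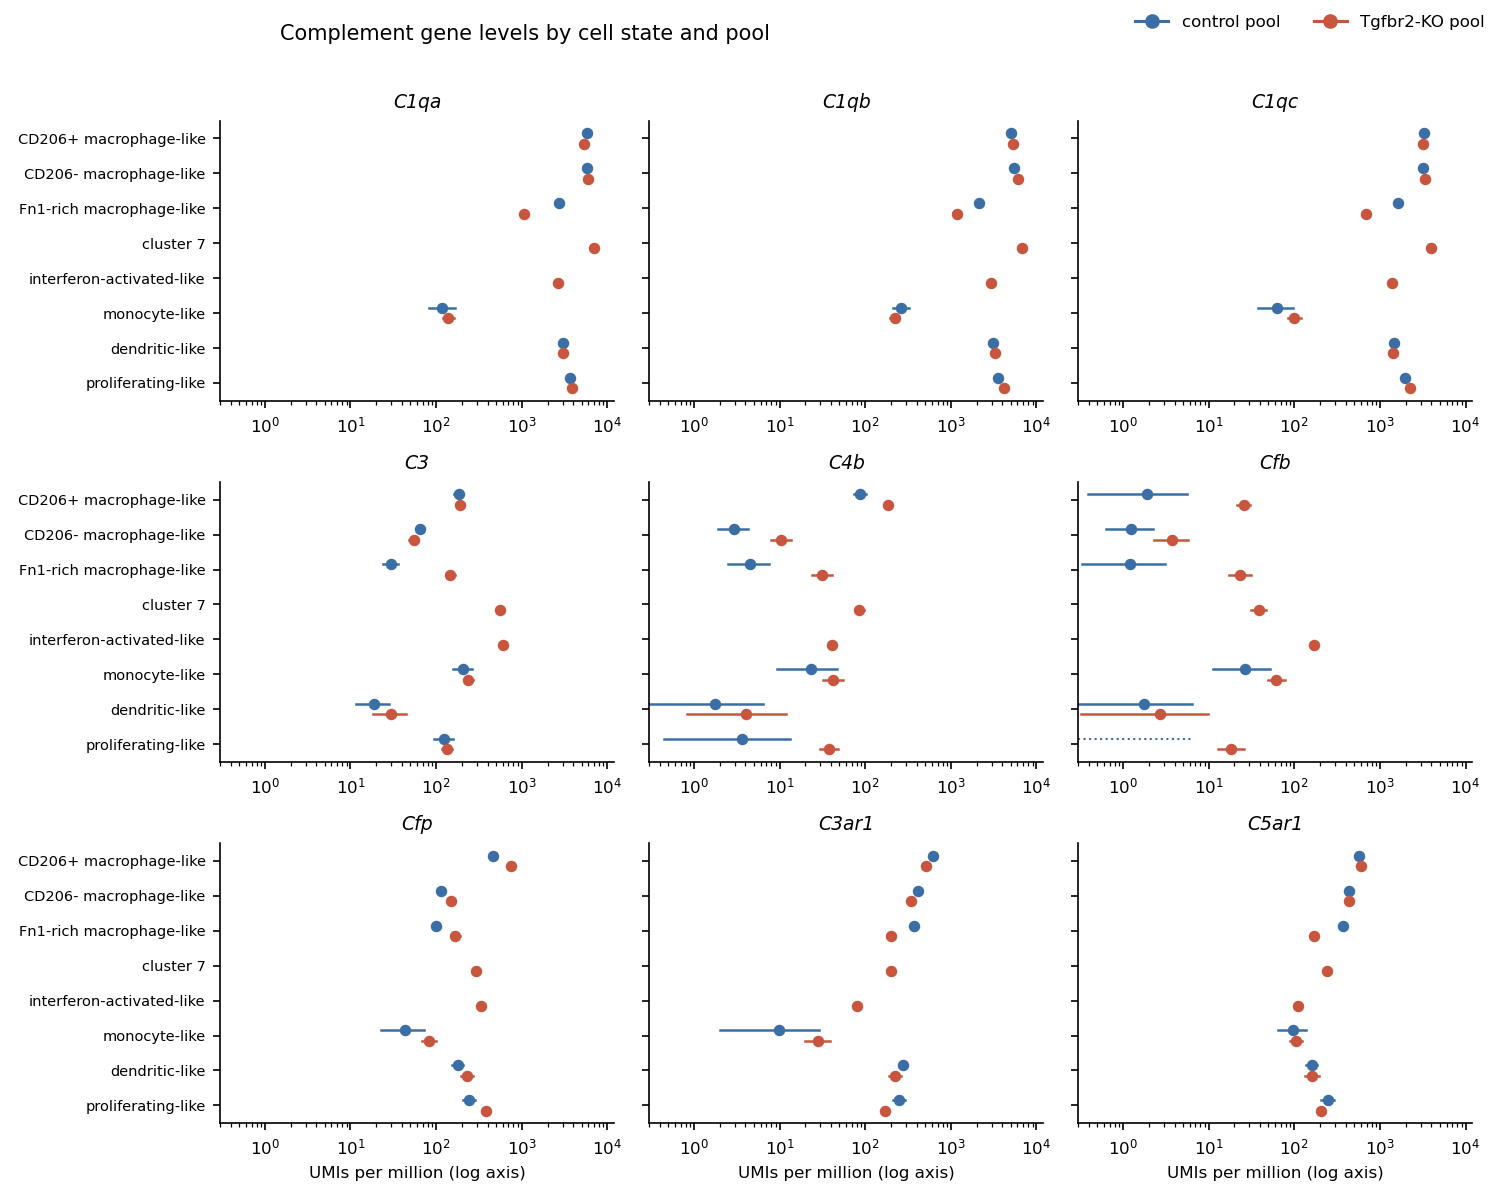
Level of each complement gene (UPM, log axis) in 8 cell states of the control pool (blue) and Tgfbr2-KO pool (red), shown where a state held at least 30 cells. Points are levels, lines their 95% Poisson intervals, and dotted lines the interval where no UMI was seen; Cfb was at 169 UPM in interferon-activated-like Tgfbr2-KO cells and under 30 UPM in every control state shown.

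The CD206- state, the most numerous in the control pool, kept all 7 complement genes with at least 100 UMIs inside the 1.5-fold band. C1qa was at 5733 UPM in control and 5952 UPM in Tgfbr2-KO cells, C1qb at 5533 and 6062 UPM, and C1qc at 3156 and 3344 UPM. C3 was at 65.0 and 54.9 UPM, Cfp at 113 and 149 UPM, C3ar1 at 412 and 341 UPM, and C5ar1 at 437 and 433 UPM. Of these 7 genes 0 were called in either direction, against a background of 3.13% of genes higher and 2.79% lower. C4b (26 control and 56 Tgfbr2-KO UMIs; 2.96 and 10.5 UPM) and Cfb (11 and 20 UMIs) were too low to be counted, with ratios of 3.54 (2.18 to 5.87) and 2.98 (1.36 to 6.90). The CD206- cells of both pools were thus near one another for C1q, C3 and both receptors. Cfp was less settled: taken one at a time, clusters 2 and 3 of this state each had 1 gene higher, Cfp. Over 10 alternatives for this state, Cfp passed the fold in 3 and C3 in 1.

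In the CD206+ state, marked by scavenger and lectin receptor genes, 3 genes were higher in the Tgfbr2-KO pool and 0 lower, with a background of 7.37% higher and 8.54% lower. Cfp was at 465 UPM in control and 756 UPM in Tgfbr2-KO cells, 1.63-fold higher (1.503 to 1.76), with 81.5% and 90.3% positive cells. C4b was at 87.7 and 184 UPM, 2.10-fold higher (1.76 to 2.52), with 22.8% and 36.1% positive cells. In cluster 4 and cluster 5 taken alone C4b was 1.97-fold and 2.77-fold higher, and Cfp 1.84-fold and 1.63-fold. Cfb had 3 UMIs in the control cells and 150 in the Tgfbr2-KO cells (1.91 and 25.7 UPM), a ratio of 13.5 with a wide interval (4.52 to 66.0), and reached the minimum only through the latter. The other genes stayed within the band: C1qa at 5772 and 5283 UPM, C1qb at 5008 and 5368 UPM, C1qc at 3273 and 3173 UPM, C3 at 184 and 188 UPM, C3ar1 at 616 and 507 UPM, and C5ar1 at 571 and 598 UPM. The level ratio of C3 seen over all cells was therefore not seen within this state, although at the coarser clustering (resolution 0.4) C3 in CD206+ cells passed the band (log2 ratio 1.19). The interferon-response list stood at 574 UPM in the control and 1383 UPM in the Tgfbr2-KO cells of this state, and its part in the C4b, Cfb and Cfp differences was not tested.

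In the Fn1-rich state, whose markers include the genes of fibronectin and the lysosomal protein Gpnmb, C3 and Cfp were higher and the C1q chains and receptors lower. The fibronectin gene Fn1 was a raised marker of cluster 6 of this state but not of cluster 12. C3 was at 29.9 UPM in control and 146 UPM in Tgfbr2-KO cells, 4.89-fold higher (3.87 to 6.22), and Cfp at 98.9 and 168 UPM, 1.70-fold higher. C1qa was at 2756 and 1070 UPM (2.58-fold lower), C1qb at 2137 and 1173 UPM (1.82-fold lower) and C1qc at 1619 and 690 UPM (2.35-fold lower). C3ar1 was at 376 and 203 UPM (1.85-fold lower) and C5ar1 at 369 and 172 UPM (2.15-fold lower). Of the 7 genes counted, 2 were higher and 5 lower, against a background of 9.51% and 14.1%. C3 had 99 control and 273 Tgfbr2-KO UMIs here, so it reached the minimum of 100 only through the latter pool. C4b and Cfb had under 100 UMIs in the state and were not counted, but both were higher in the Tgfbr2-KO cells: C4b had 15 and 59 UMIs (4.52 and 31.6 UPM; ratio 6.98, 3.91 to 13.2) and Cfb 4 and 44 UMIs (1.21 and 23.5 UPM; ratio 19.5, 7.10 to 74.8). Cluster 12, which held 0 control and 55 Tgfbr2-KO cells, had C1qa at 438 UPM, C3ar1 at 164 UPM and C5ar1 at 91.6 UPM. In cluster 6 alone, 0 genes were lower by 1.5-fold, though all 5 were lower by less. C1qa in Tgfbr2-KO cells was at 2073 UPM (1.33-fold lower, 1.26 to 1.41). C1qb was at 1796 UPM (1.19-fold lower, 1.12 to 1.26) and C1qc at 1167 UPM (1.39-fold lower, 1.29 to 1.49). C3ar1 was at 264 UPM (1.42-fold lower, 1.22 to 1.67) and C5ar1 at 299 UPM (1.24-fold lower, 1.07 to 1.44). C3 and Cfp were still higher in cluster 6, at 171 UPM (5.74-fold) and 184 UPM (1.86-fold). Classical monocyte genes summed to 336 UPM in control and 582 UPM in Tgfbr2-KO cells of the state, and interferon-response genes to 333 and 1204 UPM; their part was not tested.

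**Figure D2:**
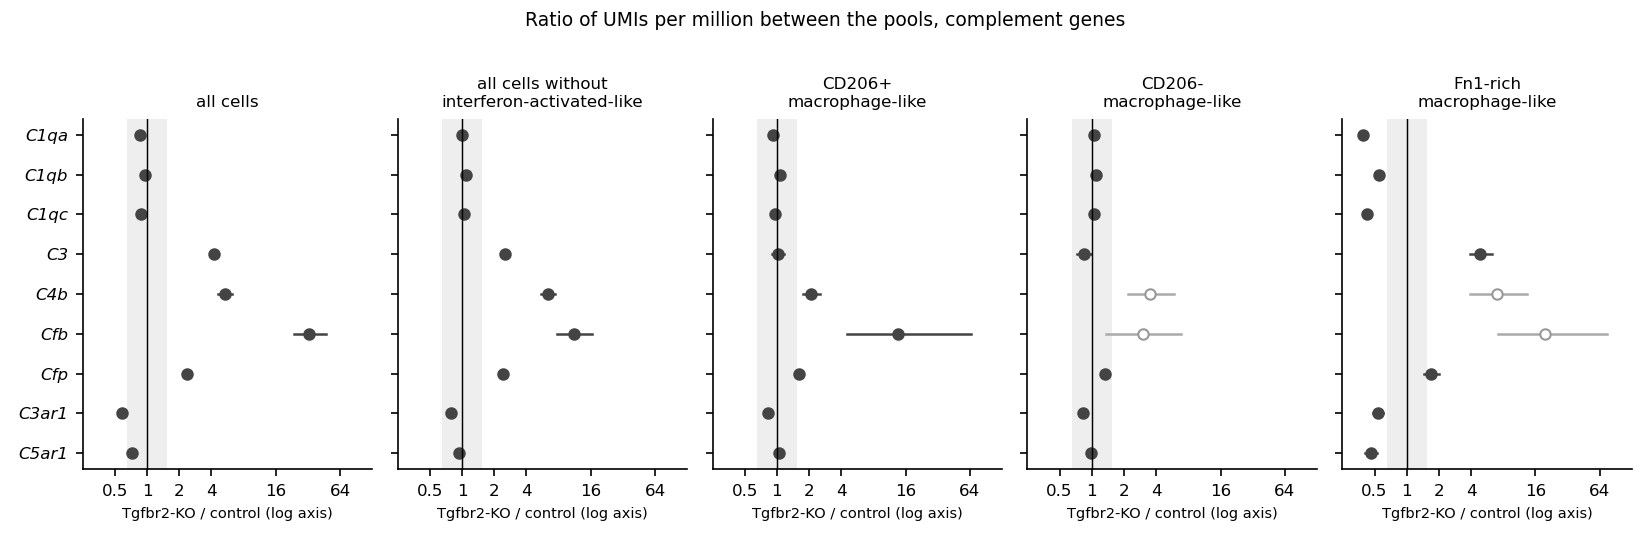
Ratio of the Tgfbr2-KO to the control level of each complement gene (log axis) over all cells, over all cells but the interferon-activated-like ones, and in 3 macrophage-like states, with 95% intervals of counting error. Grey bands mark ratios within 1.5-fold and open points genes under 100 UMIs; Cfb, C3, C4b and Cfp lie above the band in both all-cell panels, and all 7 counted genes lie inside it in the CD206- panel.

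The interferon-activated-like state of the Tgfbr2-KO pool was the main holder of Cfb and C3. It made up 25.5% of the pool's cells and 34.5% of its UMIs, and held 80.2% of its Cfb UMIs, 62.0% of its C3 UMIs, 32.4% of its Cfp UMIs and 21.7% of its C4b UMIs. In these 682 cells Cfb was at 169 UPM, with 65.1% of cells positive (30.9% after thinning), and C3 at 603 UPM, with 87.8% positive. Dendritic-like cells of the same library, at a median of 11430 UMIs against 14750, gave the background for such shares, with Cfb in 2 of 62 cells. C3 and Cfb were seen together in 62.3% of the interferon-activated-like Tgfbr2-KO cells, and C3, Cfb and Cfp together in 52.9%. Over all cells, those with C3 and Cfb made up 0.686% of the control and 23.0% of the Tgfbr2-KO pool. The receptors were low in this state, with C3ar1 at 79.7 UPM and C5ar1 at 111 UPM, and 37.4% of its cells had neither. It held 11.8% of the pool's C3ar1 UMIs and 13.4% of its C5ar1 UMIs. The 15 control cells of the state had C3 at 301.9 UPM and Cfb at 21.6 UPM, the latter from 4 UMIs in 1 cell.

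Leaving this state out of both pools, the same 4 genes stayed past the band and C3ar1 did not. C3 was then at 77.1 UPM (control) and 195 UPM (Tgfbr2-KO; 2.53-fold higher), Cfb at 1.99 and 22.1 UPM (11.1-fold), C4b 6.34-fold and Cfp 2.41-fold higher. C3ar1 was at 400 and 315 UPM (1.27-fold lower), C5ar1 1.06-fold lower, and the C1q sum 1.05-fold higher. The counts were 4 genes higher and 0 lower, with a background of 9.04% and 3.91%. Cfb reached the minimum of UMIs for a counted gene only through the Tgfbr2-KO pool, so its ratio rests on few control UMIs. Without cluster 7 as well, C3 was at 73.8 and 134 UPM (1.81-fold), Cfb 10.7-fold, C4b 6.30-fold and Cfp 2.50-fold higher.

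Cluster 7 had high levels of both C1q and C3. Its 237 Tgfbr2-KO cells had C1qa at 6947 UPM, C1qb at 6873 UPM and C1qc at 3990 UPM, a C1q level above that of each other state of at least 30 cells, and C3 at 560 UPM. C3 in this cluster and in the interferon-activated-like state had overlapping intervals, and both lay above the next state of at least 30 cells, the monocyte-like cells at 238 UPM; the 12 structural-like Tgfbr2-KO cells had 40 C3 UMIs (251 UPM). Cluster 7 gave 15.7% of the pool's C3 UMIs from 8.86% of its cells. C4b was at 85.8 UPM, Cfb at 38.4 UPM and Cfp at 294 UPM, with C3ar1 at 202 UPM and C5ar1 at 240 UPM.

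Among states of at least 30 cells in a pool, C4b and Cfp were highest in the CD206+ state of both pools, apart from the next state in each. The 6 structural-like control cells, too few to rank, had 8 C4b UMIs (122 UPM). The CD206+ state held 68.3% of C4b UMIs in the control and 52.9% in the Tgfbr2-KO pool, and 29.6% and 40.5% of Cfp UMIs. The pools differed in how much of each state they held: CD206+ cells were 9.70% of the control and 23.5% of the Tgfbr2-KO pool, CD206- cells 61.4% and 24.8%, and Fn1-rich cells 13.7% and 3.81%. C3ar1 was also highest in CD206+ cells, followed in the control pool by cluster 11 and CD206- cells, whose intervals overlapped. In the Tgfbr2-KO pool the C3ar1 intervals of CD206+ cells (507 UPM) and cluster 11 (463 UPM) overlapped. CD206- cells held 56.0% of control C3ar1 UMIs and 59.1% of control C5ar1 UMIs, while CD206+ cells held 41.3% and 39.8% of those of the Tgfbr2-KO pool.

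**Figure D3:**
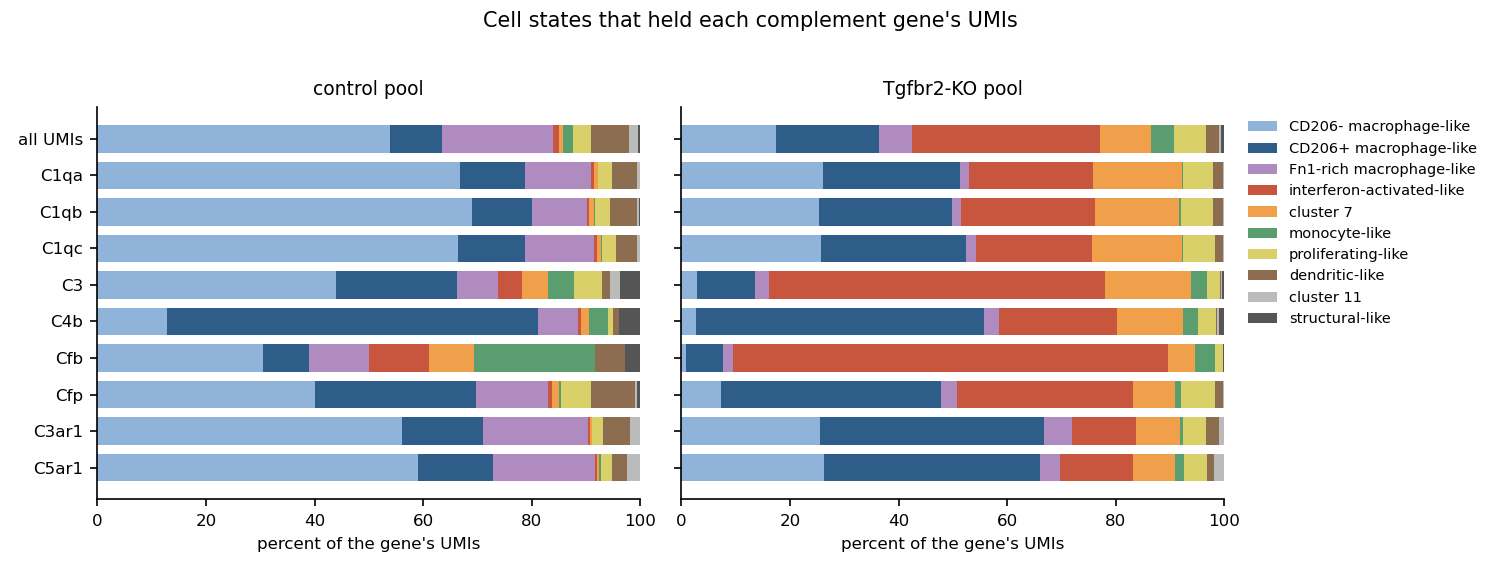
Percent of each complement gene's UMIs that came from each cell state, in the control pool (left) and the Tgfbr2-KO pool (right), with the split of all UMIs in the top bar. Interferon-activated-like cells (red) held 34.5% of all Tgfbr2-KO UMIs and 80.2% of Cfb UMIs, and CD206- cells (light blue) 66.8% of control C1qa UMIs.

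Monocyte-like cells had the opposite profile to the CD206- cells, with C3 present and C1q near its low end. In control and Tgfbr2-KO cells C3 was at 204 and 238 UPM, and Cfb at 26.3 and 62.0 UPM. The control Cfb level came from 8 UMIs (interval 11.4 to 51.9 UPM). C1qa was at 118 and 139 UPM, C1qb at 263 and 220 UPM, and C1qc at 62.5 and 99.9 UPM. C3ar1 was at 9.87 and 28.0 UPM, from 3 UMIs in the control cells, and C5ar1 at 95.4 and 105 UPM. A C1q UMI was seen in 48.6% and 55.0% of these cells at median depths of 8854 and 9090.5 UMIs, and in 30.6% and 28.6% after thinning; such shares were the background against which C1q in other states was read. Cells with both C3 and Cfb were 3 of 37 and 42 of 140. These cells carried 10 classical and 9 patrolling monocyte markers and also 5 neutrophil markers. Dendritic-like cells differed again: their C1q sum was at 7651 and 7753 UPM, with C3 at only 18.7 and 29.6 UPM. Proliferating-like cells had C3 at 122 and 134 UPM, Cfp at 243 and 384 UPM, and Cfb at 0 and 18.5 UPM.

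C1q varied widely from cell to cell within the interferon-activated-like Tgfbr2-KO cells. Of the 682 cells, 93 (13.6%) had no C1q UMI, 135 had fewer than 10 C1q UMIs per 10000, 116 lay between 10 and 50, and 338 (49.6%) were at 50 or more. In comparison, 98.9% of control CD206+ cells and 96.2% of the Tgfbr2-KO ones were at 50 or more, and 97.9% and 97.0% in the CD206- state. The share was 92.8% in the Tgfbr2-KO cells of cluster 7, 56.2% and 23.5% in the Fn1-rich state, and 2.70% and 2.14% in the monocyte-like state. The interferon-activated-like cells thus spanned the range from monocyte-like to macrophage-like C1q levels.

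**Figure D4:**
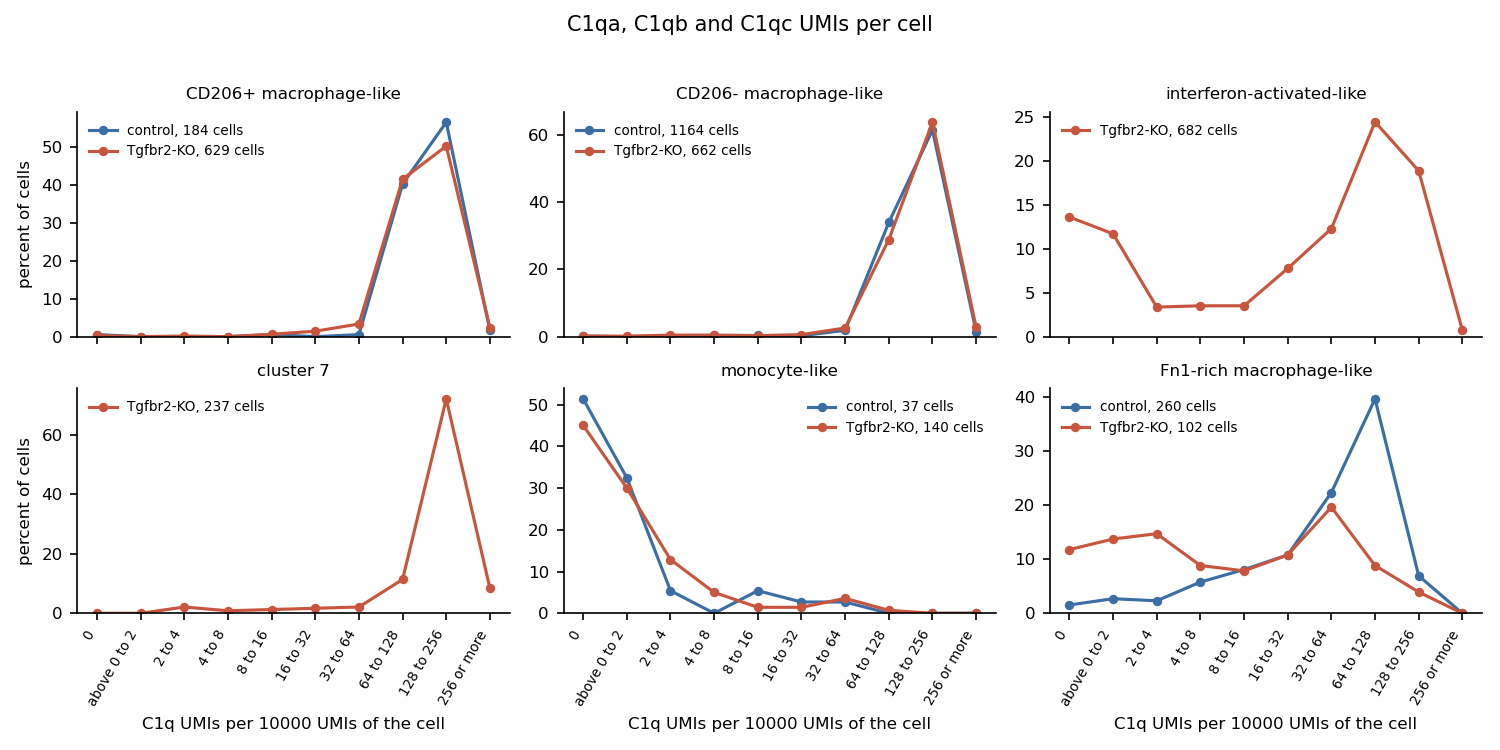
Percent of cells (vertical axis) by their summed C1qa, C1qb and C1qc UMIs per 10000 UMIs (horizontal axis, classes of growing width) in 6 cell states of the control pool (blue) and Tgfbr2-KO pool (red). Of the interferon-activated-like cells 13.6% had no C1q UMI and 49.6% had 50 or more per 10000, while 2.14% of Tgfbr2-KO monocyte-like cells reached 50.

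Grouped by C1q, these cells had like levels of C3 and unlike levels of the receptors. The 228 cells under 10 per 10000 (low), the 116 between and the 338 at 50 or more (high) had median depths of 12950, 13837 and 16456 UMIs. C3 was at 573, 567 and 629 UPM from low to high. Cfb was at 206, 172 and 150 UPM, and Cfp at 306, 313 and 353 UPM. C4b was at 34.4, 22.3 and 50.6 UPM. None of these convertase genes differed by 1.5-fold between the low and high groups. C3ar1 was at 31.5, 36.1 and 117 UPM, 3.72-fold higher in the high than the low group (3.003 to 4.65), and C5ar1 at 74.7, 84.3 and 138 UPM, 1.84-fold higher. Classical monocyte genes ran the other way, with a summed level of 3357, 2058 and 997 UPM; among them Ly6c2 was at 890, 545 and 251 UPM and Plac8 at 2118, 1309 and 612 UPM. Dendritic cell genes were also lower in the high group, with a summed level of 340, 346 and 163 UPM for the 10 listed genes and Ccr7 at 137, 62.0 and 30.7 UPM. At resolution 1.2, 13 control and 195 Tgfbr2-KO cells formed an unnamed cluster led by Ccr7 and Fscn1, with 7 interferon and 6 dendritic cell markers. The part of monocyte and dendritic cell RNA in the receptor difference was not tested. Macrophage identity genes summed to 1210, 1277 and 1783 UPM, while Cxcl9, an interferon-induced chemokine gene, was at 3527, 3219 and 3522 UPM. The groups are ranges of 1 continuous measure in 1 pool, and the 116 cells between the limits lie near the divide.

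**Figure D5:**
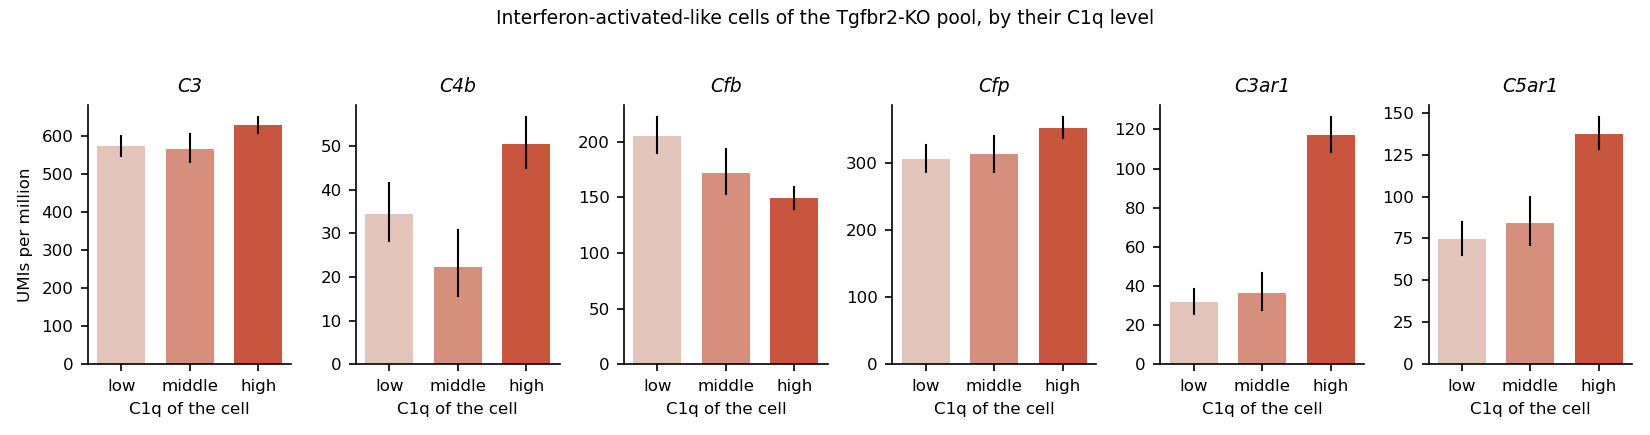
Level (UPM, bars, with 95% Poisson intervals as lines) of 6 complement genes in interferon-activated-like Tgfbr2-KO cells with low (228 cells), middle (116) and high (338) C1q. C3 stood at 573, 567 and 629 UPM, while C3ar1 stood at 31.5, 36.1 and 117 UPM.

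Cells of this state with a UMI of Nos2, the inducible nitric oxide synthase gene, also had more C3 and Cfb. In the 104 cells with Nos2, C3 was at 884 UPM and Cfb at 332 UPM, against 545 and 136 UPM in the 578 cells without; median depths were 16844.5 and 14497 UMIs. Cfp was at 309 and 338 UPM, and C3ar1 at 72.9 and 81.1 UPM in these groups. C3 and Cfb thus differed by more than 1.5-fold between these groups, and Cfp and C3ar1 by less.

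Of the wider complement list of 58 genes with a matrix row (49 beyond the 9), 28 reached 100 UMIs over both pools. Of these 7 were higher and 7 lower in the Tgfbr2-KO pool, with a median log2 ratio of -0.12 beside 0.09 over all counted genes. The share of all counted genes so called was 11.9% higher and 7.53% lower, and the counts below are to be read beside it. Beyond the 9 genes, 19 were counted, 3 of them higher and 6 lower. All 4 counted convertase genes, each one of the 9, were higher, and of 11 counted receptor genes 1 was higher and 4 lower. C2 and Cfd, the remaining enzymes of the convertases, had 14 and 47 UMIs and 2 and 1 UMIs in the control and Tgfbr2-KO pools and were not counted.

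Among the higher genes, C6, a component of the membrane attack complex, was at 1.23 UPM in control and 14.2 UPM in Tgfbr2-KO cells (11.5-fold). These levels came from 20 and 435 UMIs. In CD206+ cells C6 was at 6.99 and 55.9 UPM. C1ra, a protease that C1q carries, was at 6.81 and 14.0 UPM (2.06-fold). Scarf1, a scavenger receptor that can bind C1q, was at 1.35 and 8.88 UPM (6.58-fold, from 22 and 273 UMIs), with 16.6 UPM in interferon-activated-like Tgfbr2-KO cells. C6 and Scarf1 reached the minimum of 100 UMIs only through the Tgfbr2-KO pool.

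Most of the lower genes described here encode receptors. C5ar2, the other C5a receptor, was at 26.3 and 13.7 UPM (1.91-fold lower), and at 3.30 UPM in the interferon-activated-like cells. Cd93, named early on as a C1q receptor, was at 134 and 64.8 UPM (2.07-fold lower), with 283 and 85.9 UPM in CD206+ cells, 125 and 68.4 UPM in CD206- cells, and the other order in Fn1-rich cells (151 and 188 UPM). Lrp1, an uptake receptor, was at 213 and 118 UPM (1.80-fold lower). Colec12 (11.7 and 5.11 UPM) and the membrane regulator gene Cd46 (3.68 and 2.08 UPM) were lower at low levels. C5ar2 was thus low in the same interferon-activated-like cells in which C3 and Cfb were high.

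The genes whose levels ran most like those of the complement genes were ranked over 13 units, each a cell state of 1 pool with at least 50 cells, by Pearson's r of log2 levels. This is a description: the units share 1 library and differ in depth. For the C1q sum these were Cd81 (r = 0.97), Hmgn1 (0.91), Fads1 (0.91), Creld1 (0.90) and Herpud1 (0.90). For C3 they were Irf8 (0.94), Gm4951 (0.93), Iigp1 (0.93), Rnf213 (0.92) and Il12rb1 (0.92), and for Cfb Trafd1 (0.97), Ifi47 (0.96), Zbp1 (0.95), Gbp2 (0.95) and Irgm1 (0.95). Many of these C3 and Cfb partners are known as interferon-induced genes. Iigp1, Zbp1 and Gbp2 are also markers that named the interferon-activated-like state, so their likeness is not independent of that state's definition. For Cfp the list was led by Clec10a (0.93), a lectin gene of macrophages and dendritic cells, followed by Rmnd5a (0.90), Stard3nl (0.89), Pdia4 (0.87) and Ciart (0.87). Within the 8 Tgfbr2-KO units alone r for these 20 pairs ran from 0.78 to 0.99, and within the 5 control units from 0.54 to 0.99. The lowest in the control units were Trafd1 with Cfb (0.54), Il12rb1 with C3 (0.59) and Fads1 with C1q (0.67).

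Free RNA in the suspension was read from 70147 barcodes of 10 to 100 UMIs outside the called cells. It held C1qb at 4924 UPM, C3 at 360 UPM, Cfb at 60.5 UPM, C4b at 99.3 UPM and Cfp at 412 UPM. The gene of at least 200 UPM in free RNA that was lowest in a pool relative to it capped the share of free RNA at 2.32% in the control and 4.47% in the Tgfbr2-KO pool. For Cfb this allowed at most 1.41 of the 2.21 UPM in the control pool and 2.71 of the 73.0 UPM in the Tgfbr2-KO pool. For the CD206+ state the same cap came to at most 0.424 of the 1.91 UPM in the control and 3.02 of the 25.7 UPM in the Tgfbr2-KO pool, and for C4b there at most 4.95 of the 184 UPM of Tgfbr2-KO cells.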

How the data were processed

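The library was made from sorted lung cells of both genotype pools, stained with separate hashtags and mixed. The deposited matrix holds the count of UMIs per gene and barcode, without normalization, for 22597 genes, 3 hashtags and 1172636 barcodes. The submitters' processing notes name Cell Ranger 8.0 (8.0.0 in the matrix header), Seurat 5.1.0 and GRCm38; the annotation version and the step done with Seurat are not given in the sources used here. The table of hashtags has, per the file headers, each assignment's posterior probability, a fraction, for 4887 called cells. The deposited hashtag columns hold log10 values of the hashtag count plus 1 (largest difference from the matrix 8.9e-16).

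Of the called cells, 1933 were assigned to B0301 and 2738 to B0303. Doublets were treated by leaving out 96 multiplets, with 54 blank and 66 unassigned cells; doublets within a pool remain. Filters were 1000 UMIs and 500 genes as minimum and 10% mitochondrial UMIs as maximum; they removed 101 cells and kept 4570. Clusters (Leiden, resolution 0.8) came from 2000 variable genes without complement, mitochondrial, ribosomal or sex-linked genes, 30 principal components and 15 neighbours. A state was named where at least 3 of its markers were raised by more than 0.5 (log2) at 10 UPM or more, and left unnamed on a tie, at low depth, or where another list led its 10 leading genes. A gene was counted at 100 UMIs over the populations compared and called at 1.5-fold; no tests were made, since a pool has no replicate. Likeness used log2(UPM + 1).

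All 9 complement genes are named, with pathway genes past 1.5-fold over all cells (1 of them is not reported here) and the 5 most alike genes of C1q, C3, Cfb and Cfp. The genes, lists and marker sets were chosen with earlier results of these data known. Alternatives by single cluster, without cluster 12, and without cluster 7 were chosen after seeing the data, as were the split by C1q per cell and by Nos2. Software was Python 3.11.15, numpy 2.4.6, scipy 1.17.1, pandas 2.3.3, scanpy 1.11.5, leidenalg 0.10.2 and matplotlib 3.10.9. The ratio code was tested on simulated data.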

Additional observations from a re-analysis of the deposited data

Results flagged for a closer look

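Barcodes outside the called cells, which enter no comparison, held 5 of the 9 complement genes at levels above those of control cells. In these 70147 barcodes of 10 to 100 UMIs, Cfb stood at 60.5 UPM, against 2.21 UPM in control cells and 73.0 UPM in Tgfbr2-KO cells. C3 stood at 360 UPM, against 79.6 and 336 UPM, and C4b at 99.3 UPM, against 12.4 and 66.1 UPM. Cfp stood at 412 UPM, against 151 and 355 UPM. C1qb, at 4924 UPM, was close to its levels in control (4328 UPM) and Tgfbr2-KO cells (4165 UPM). The other genes were below their control level there: C1qa at 4150 UPM, C1qc at 2160 UPM, C3ar1 at 313 UPM and C5ar1 at 339 UPM. These barcodes carry no genotype in the hashtag table, and both pools share the library. Monocyte-like control cells held Cfb at 26.3 UPM and Fn1-rich control cells at 1.21 UPM in that same library, from only 8 and 4 UMIs. With the largest allowed share of free RNA subtracted, the log2 ratio of Cfb over all cells was 6.45 and that of C3 was 2.17. Without subtraction they were 5.05 and 2.08. For Cfb that share is most of the 2.21 UPM of the control pool, so 6.45 rests on a small remainder.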

How the results depend on the processing

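Over all cells, C3, C4b, Cfb and Cfp stayed past 1.5-fold under each of 10 alternatives, with log2 ratios of 0.86 to 2.17, 2.35 to 2.66, 3.42 to 6.45 and 1.16 to 1.34. The alternatives that asked for 30 UMIs, or for 100 UPM in 1 pool, change only which genes are counted, so they could not move a ratio. The count of 4 higher genes became 2 where a gene needed 100 UPM in 1 pool, since C4b and Cfb were then not counted. C3ar1 (log2 ratio -0.76; -0.83 to -0.27 over the alternatives) was the 1 lower gene, and the count of lower genes became 0 with each cell given the same weight (-0.55), without the interferon-activated-like state (-0.34) and without that state and cluster 7 (-0.27). The 7 lower pathway genes became 3 without the interferon-activated-like state and 2 at a fold of 2. In CD206- cells the count of 0 higher genes became 1 at resolution 0.4, 2 with a gate on each cell (C3 0.81 and Cfp 0.83 on the log2 scale; 660 of 4570 cells lay near that gate's limits), 1 in cluster 2 alone and 1 in cluster 3 alone. In Fn1-rich cells the 5 lower genes became 0 without cluster 12. C4b, Cfb and Cfp in CD206+ cells stayed past the fold in 9 of 9 alternatives. No direction of a called gene reversed. Trimmed-mean scaling moved all genes by 0.07 (log2) over all cells and by 0.10 without the interferon-activated-like state. No paired analysis was possible because each genotype is 1 pool, and for the same reason no replicate could be left out. Depth limits Cfb and C4b most: in control CD206+ cells Cfb rests on 3 UMIs.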
